A study of Mus musculus with 8 samples.

Results

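The neurons described here are those that the authors named LTMR, for low-threshold mechanoreceptors, among 20 clusters of single cells from mouse dorsal root ganglia. They were taken as every row of the authors' deposited table of cluster markers whose cluster is LTMR, in which the cells of the cluster are compared with all other cells. These rows cover 2257 genes, of 9229 genes and 56694 pairs of gene and cluster in the whole table. The cluster held 3.93% of all cells, a share calculated from the deposited detection fractions.

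Low-threshold mechanoreceptors are sensory neurons whose endings in skin respond to light touch. Those with thin, unmyelinated C fibres, the C-LTMRs, supply hairy skin and are known for tyrosine hydroxylase, for the stretch-activated channel PIEZO2, for the vesicular glutamate transporter VGLUT3 and for the secreted protein TAFA4. Touch neurons with myelinated A fibres and proprioceptors carry other genes, among them the neurotrophin receptors TrkB and TrkC and heavy neurofilament.

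The study's subject was the neuronal membrane proteasome, or NMP, which is proteasome exposed at the surface of neurons. Ganglia of C57BL/6 mice aged 21 to 30 days, with no further allele or drug named, were pooled from 4 mice per sample and dissociated. All living cells, in both groups, were exposed to an antibody against proteasome subunit β5 for 30 min and to a fluorescent second antibody for 40 min, then sorted into NMP-positive and NMP-negative cells and processed for droplet sequencing that counts 3′ ends. The labels list 4 samples of each group, and their descriptions name 4 lanes of 1 library for each, so no biological replicate was available. The table has no sample column, so NMP-positive and NMP-negative LTMR cells could not be compared. The sources used here do not give the sex of the animals, the number of cells or the depth per cell, and the extraction protocol cites a procedure for nuclei.

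The table lists a gene for a cluster only at an absolute log2 fold change of at least 0.25, a p-value of at most 0.01 and detection in at least 10% of the cells on one side, so a gene not listed was not read as absent. A gene is called higher or lower below when its deposited adjusted p is under 0.05, which served as a filter only, because the clusters had been drawn from the same expression values and cells are not replicates. Every log2 fold change and every percentage of cells given here is a value of the authors' deposited table, with no replicate error. By that filter 1150 genes were higher in LTMR, 12.5% of all genes in the table, and 781 were lower, 8.46% of them, with 326 listed but past neither side. The counts of list members given below are to be read beside these shares of 12.5% and 8.46%. The median log2 fold change over all genes listed for LTMR was 0.25.

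All 10 C-LTMR marker genes were higher in the cluster, with a median log2 fold change of 1.40. This count and this median include the 4 markers given for the cluster. Piezo2, the stretch-activated channel of touch, had a deposited log2 fold change of 2.54 and was detected in 100% of LTMR cells and 38.2% of other cells. Rarres1, a membrane protein gene first found as responsive to retinoids, stood at 2.43 with 100% against 24.4%. Th, which encodes tyrosine hydroxylase, stood at 2.21 with 94.2% against 11.9%, and Tafa4 at 2.19 with 100% against 11.7%. These 4 genes are the markers given for the cluster, and their high values describe how it was named. The other members of the list were Gfra2, a receptor subunit for neurturin (1.49), the transcription factor gene Zfp521 (1.31), the cadherin gene Cdh9 (1.26), the transcription factor genes Pou4f2 (0.82) and Runx1 (0.71), and Slc17a8, which encodes VGLUT3 (0.74).

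The promoters of Th, Tafa4 and Rarres1 are shown because they are 3 of the 4 markers given for the cluster, and that of the fourth, Piezo2, is not shown. Each window holds the 250 bases before the RefSeq gene start on GRCm38.p6, 5′ to 3′ in the direction of the gene. The sources used here do not give the genome build of the authors' processing. Capitals mark matches, on either strand, to a cyclic AMP response element (TGACGTCA), a RUNX motif (TGTGGT), an ISL motif (CTAATG) or an E-box (CACCTG).
Th, chr7:142899996-142900245, minus strand: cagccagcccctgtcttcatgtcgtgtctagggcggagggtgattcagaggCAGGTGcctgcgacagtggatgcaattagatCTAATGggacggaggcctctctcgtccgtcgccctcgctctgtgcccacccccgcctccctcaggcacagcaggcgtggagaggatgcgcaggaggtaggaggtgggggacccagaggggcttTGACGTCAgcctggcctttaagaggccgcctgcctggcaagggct
Tafa4, chr6:97060412-97060661, minus strand: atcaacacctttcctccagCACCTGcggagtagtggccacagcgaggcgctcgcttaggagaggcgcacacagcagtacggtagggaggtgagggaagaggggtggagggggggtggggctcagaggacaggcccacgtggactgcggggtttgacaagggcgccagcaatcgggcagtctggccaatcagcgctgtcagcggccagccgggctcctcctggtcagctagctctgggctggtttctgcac
Rarres1, chr3:67515524-67515773, minus strand: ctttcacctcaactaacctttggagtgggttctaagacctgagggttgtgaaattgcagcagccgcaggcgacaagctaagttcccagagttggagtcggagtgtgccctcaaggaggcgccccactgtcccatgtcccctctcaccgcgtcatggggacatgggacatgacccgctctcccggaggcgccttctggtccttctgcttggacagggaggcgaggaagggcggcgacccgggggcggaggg
In the Th window the cyclic AMP response element lies 45 to 38 bases before the gene start, the ISL motif 168 to 163 bases and the E-box, on the other strand, 199 to 194 bases before it. The Tafa4 window holds an E-box 231 to 226 bases before the start, and the Rarres1 window holds none of these letters. Of 32851 RefSeq windows of the same length, 1.55% hold the cyclic AMP response element, 14.0% the RUNX motif, 6.36% the ISL motif and 17.2% the E-box. No motif matches overlapped in these windows. A match is a run of letters and does not show binding.

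The markers differed in how far other clusters shared them. To set clusters side by side, each deposited fold change was converted to a log2 level relative to the mean of all cells, whether or not it passed the filter. Cdh9 and Pou4f2 were listed for LTMR and for no other of the 20 clusters. Slc17a8 was listed for LTMR (log2 relative level 0.70) and Low.UMI.LTMR (0.80) only, and it did not pass the filter in Low.UMI.LTMR. Th had a log2 relative level of 2.01 in LTMR and 1.86 in Low.UMI.LTMR, a cluster whose name marks few transcript molecules per cell, and lay below the mean in all 14 other clusters for which it was listed. Its share of cells was 33.5% in Low.UMI.LTMR, 24.8% in Non-peptidergic and 23.0% in CGRP-e. In the 7 clusters named Unknown the share with Th was between 1.8% and 4.7%. Tafa4 followed the same order, with 2.00 in LTMR and 1.77 in Low.UMI.LTMR, and was found in 31.9% of SST cells although its level there was below the mean (-0.41).

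Piezo2, Rarres1, Gfra2, Zfp521 and Runx1 were shared more widely. Piezo2 had a log2 relative level of 2.29 in LTMR, 1.37 in Low.UMI.LTMR, 0.98 in Non-peptidergic, 0.48 in CGRP-n and 0.37 in CGRP-e, and the lowest listed level was -1.48 in Cold.sen. Rarres1 was highest in Low.UMI.LTMR (2.66), then LTMR (2.20) and Cold.sen (1.49). Zfp521 was highest in Heat.sen (2.08), with Cold.sen (1.25) and LTMR (1.23) close to each other. Runx1, which acts in the unmyelinated lineage of sensory neurons, was above the mean in 6 clusters, and its level in LTMR (0.67) was below that in Unknown.488p (1.77), Cold.sen (0.96) and CGRP-a (0.84).

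**Figure D1:**
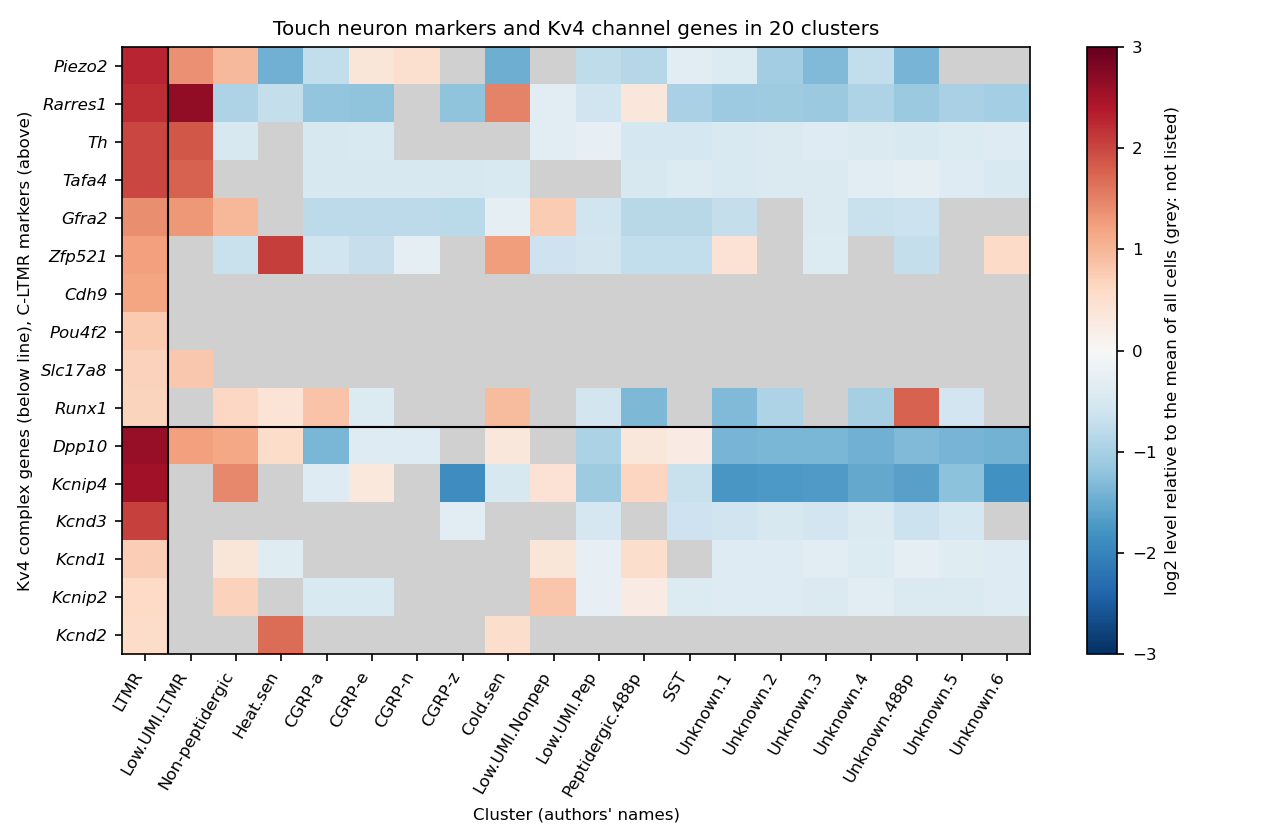
Colour gives the log2 level of each gene (rows) relative to the mean of all cells in each of 20 clusters (columns), and grey marks a gene not listed for that cluster. The C-LTMR markers are above the horizontal line and the higher genes of the Kv4 channel complex are below it. Th and Tafa4 are red in LTMR and Low.UMI.LTMR alone, Cdh9 and Pou4f2 have a value in LTMR alone, and Dpp10, Kcnip4 and Kcnd3 reach 2.61, 2.53 and 2.05 in LTMR.

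Few genes of A-fibre touch neurons and proprioceptors were called. Of the 13 genes on that list 9 occur in the table, and 4 were listed for LTMR. Of the 9, 1 (11.1%) was higher and 2 (22.2%) lower, beside 12.5% and 8.46% of all genes. Ntrk3, which encodes TrkC, was higher (1.27, in 100% of LTMR cells and 19.5% of others). The transcription factor genes Maf (-0.67, 4.9% of LTMR cells against 17.2%) and Etv1 (-0.74, 8.1% against 22%) were lower. Ntrk2, which encodes TrkB, had -0.88 and did not pass the filter, though it was found in 35.9% of LTMR cells against 20.3%. Nefh, Runx3, Calb1, Spp1 and Whrn were not listed for LTMR. The label of the cluster is broad, and apart from Ntrk3 the touch neuron markers that were higher in it are those of C-LTMRs.

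Of the general neuronal genes 8 of 10 were higher and 0 lower, among them Syt1 (1.35), Isl1 (0.84), Elavl4 (0.76) and Snap25 (0.67), and Tubb3 and Stmn2 were not listed. In Non-peptidergic 7 of the 10 were higher and in Heat.sen 4. Markers of the other sensory neurons were higher in LTMR in 0 cases, beside 12.5% of all genes. Mrgprd neuron genes had 4 of 8 lower (50%), itch neuron genes 2 of 11 (18.2%), peptidergic neuron genes 4 of 8 (50%) and cold neuron genes 0 of 4. Of all genes 8.46% were lower. Not listed for LTMR were 3 of the Mrgprd, 9 of the itch, 3 of the peptidergic and 3 of the cold neuron genes. Among the lower genes Cd55, which encodes a complement regulator, stood at -1.31, Gna14 at -0.92, the oncostatin M receptor gene Osmr at -0.63 and the heat and capsaicin channel gene Trpv1 at -1.08. A lower level did not always go with a smaller share of cells. Larger shares of LTMR cells held 3 of the 5 listed Mrgprd, 3 of the 5 peptidergic, 0 of the 2 itch and 0 of the 1 cold neuron genes. Cd55 was found in 98.4% of LTMR cells against 49.3% of others, but Gna14 in 14.2% against 24.8%.

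The largest fold change of all named genes was that of Dpp10, an accessory subunit of Kv4 potassium channels, at 2.95. It was followed by Kcnip4, another Kv4 subunit gene (2.84), Piezo2, Wfdc2, which encodes a secreted protein with whey acidic protein domains (2.49), Rarres1 and the pore gene Kcnd3 (2.25). Below Th and Tafa4 came the kinesin gene Kif5c (2.14), the sodium channel modulator gene Fgf12 (2.08), the nuclear factor gene Tox3 (1.93), the adhesion gene Kirrel3 (1.85), the acid-sensing channel gene Asic2 (1.84), Rprm (1.83) and the purine receptor gene P2ry1 (1.82). In the authors' deposited table each of these 15 genes was found in at least 94.2% of LTMR cells, whereas their share of other cells ran from 6.7% for P2ry1 to 45.9% for Fgf12.

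Ranked by the difference in detection, the leading gene was Hcrtr2, which encodes an orexin receptor, in 97.7% of LTMR cells and 1.4% of all other cells. The diacylglycerol kinase gene Dgkk followed (99% against 3.9%), then Cdh9 (98.7% against 3.7%), the actin-severing protein gene Scin (96.8% against 2.7%), Slc17a8 (96.8% against 3.1%) and the guidance gene Sema3e (99% against 5.5%). P2ry1 (99.7% against 6.7%), the T-type calcium channel gene Cacna1i (93.5% against 0.5%), the adhesion gene Sdk2 (99.7% against 7.4%) and Pou4f2 (98.1% against 6.3%) completed the 10. Hcrtr2 was listed for LTMR and Low.UMI.LTMR, Cacna1i and Scin for LTMR alone. The 2 rankings share 1 gene, P2ry1.

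**Figure D2:**
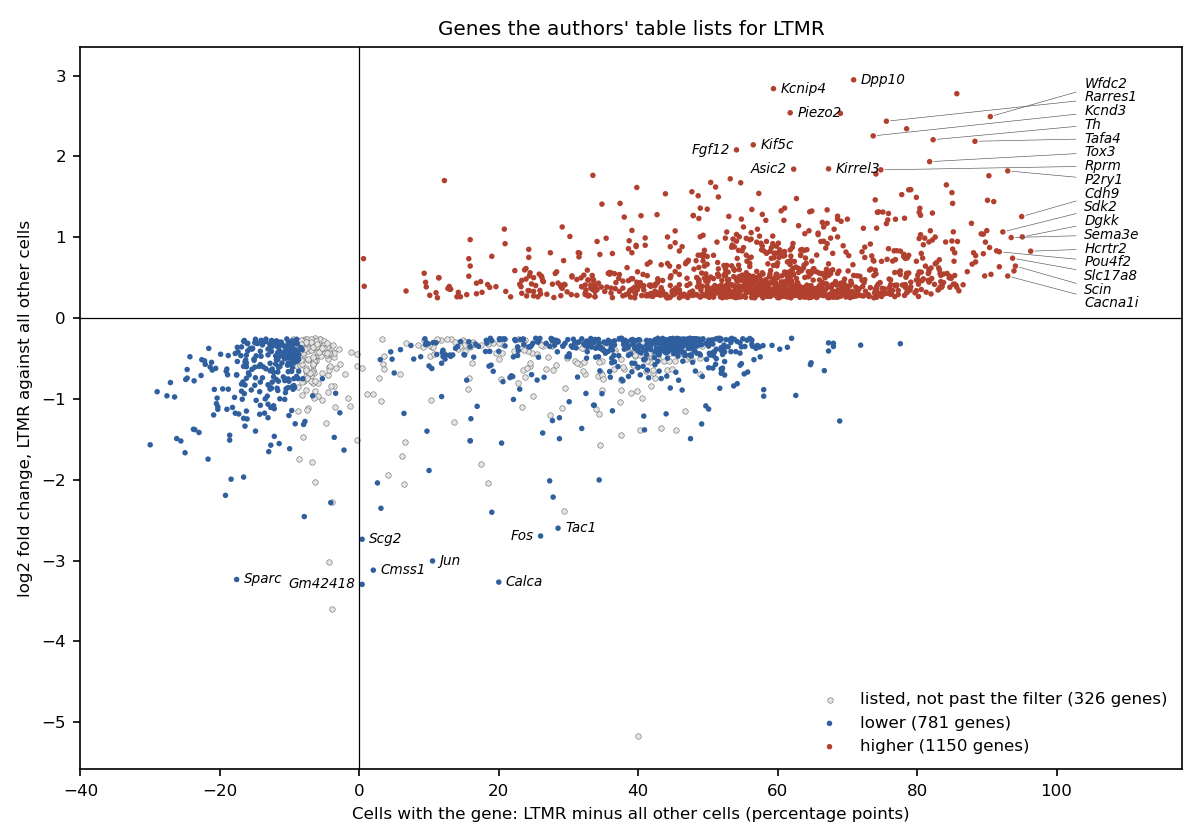
Each point is a gene listed for LTMR, with the difference in the percentage of cells with the gene (LTMR minus all other cells, percentage points) on the horizontal axis and the log2 fold change on the vertical axis. Red points are the 1150 higher genes, blue the 781 lower genes and open points the 326 others. Every red point lies to the right of 0, while 514 blue points lie there too. Predicted genes are not labelled among the higher genes, and Gm42418 is labelled among the lower ones.

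Channels and enzymes that go with touch were unevenly represented. Of the mechanically gated channels and modulators, 4 of 12 genes in the table were higher and 0 lower. Beside Piezo2 these were the calcium pump gene Atp2b2 (1.46, in 100% of LTMR cells and 9.9% of others), Tmem63b, a member of an osmosensitive channel family (0.98), and Tmem150c (0.30). The stretch-sensitive potassium channel gene Kcnk2 was listed at -0.61 without passing the filter, and Piezo1 was not listed. Non-peptidergic had 3 of the same 12 genes higher and 0 lower, and Heat.sen 2 higher and 1 lower.

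The catecholamine pathway was split. Th, the enzyme that makes L-DOPA from tyrosine, was higher by 2.21, and Maoa, which breaks down monoamines, was higher by 0.42. Gch1, which starts synthesis of the cofactor of tyrosine hydroxylase, was lower (-0.29) and was found in 2.9% of LTMR cells against 16.6% of others. Qdpr, which regenerates that cofactor, was also lower (-0.32), although it was found in 98.1% of LTMR cells against 47.4% of others. At an absolute log2 fold change of at least 0.5 only Th was still called, so the other 3 calls rest on small values. The genes Pts and Spr occur in the table and were not listed for LTMR. Ddc, Dbh, Slc18a2 and Slc6a2, which act in the next step of synthesis, in storage and in uptake, were not analysed here, since the table used gives no row for them.

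Both vesicular glutamate transporters in the table were higher, Slc17a8 by 0.74 and Slc17a6, which encodes VGLUT2, by 0.53. Slc17a6 was found in 100% of LTMR cells and 44.5% of others, and its log2 relative level in LTMR (0.50) was lower than in Cold.sen (1.37) and Heat.sen (1.06). In the TAFA family of secreted chemokine-like proteins Tafa4 was higher and Tafa5 lower (-0.30), and Tafa1 and Tafa2 were not listed for LTMR. Tafa1 was highest in CGRP-n (1.31) and Heat.sen (1.26), Tafa2 in CGRP-n (0.86) and Tafa5 in Heat.sen (1.42).

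The Kv4 complex carries a fast inactivating potassium current that sets the delay and the spacing of action potentials, and is built of pore subunits (Kcnd1 to Kcnd3), cytosolic KChIP subunits (Kcnip1 to Kcnip4) and DPP-like subunits (Dpp6, Dpp10). Of its 9 genes 6 were higher in LTMR and 0 lower, with a median log2 fold change of 0.77 over the 7 listed. Kcnd3 was found in 100% of LTMR cells and 26.3% of others. Kcnd1 stood at 0.77 (99.7% against 26.2%) and Kcnd2 at 0.57 (82.5% against 5.1%), so all 3 pore genes were higher. Kcnip2 stood at 0.62, Kcnip1 at -0.41 without passing the filter, and Kcnip3 and Dpp6 were not listed for LTMR. The count was not far from that of Non-peptidergic, where 5 of the 9 were higher and 1 lower. Heat.sen had 3 higher and 1 lower.

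The members of this complex were distributed unequally over the clusters. Kcnd3 was above the mean of all cells in LTMR alone among the 10 clusters for which it was listed, with 2.05 in LTMR and -0.34 in CGRP-z, the next. Dpp10 had 2.61 in LTMR, 1.23 in Low.UMI.LTMR and 1.16 in Non-peptidergic, and Kcnip4 had 2.53 in LTMR and 1.45 in Non-peptidergic. The order of Kcnd2 was different, with 1.67 in Heat.sen above 0.54 in LTMR. Kcnip2 was higher in Low.UMI.Nonpep (0.84) and Non-peptidergic (0.70) than in LTMR (0.59). Dpp6, the other DPP-like subunit gene on the list, was found in 98.3% to 100% of cells of 7 named neuron clusters and had no row for LTMR.

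Other potassium channel genes showed smaller values: 9 of 37 were higher and 3 lower. The largest were Kcna2 (0.55) and Kcnj6 (0.54, in 92.6% of LTMR cells and 2% of others), an inward rectifier gated by G proteins. Kcnb2 was lower (-0.67), and Kcnmb2 (-0.71), Kcnq5 (-0.66) and Kcnk2 did not pass the filter. Non-peptidergic had 7 of the same 37 genes higher and 4 lower, and Heat.sen 12 higher and 1 lower.

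Voltage-gated sodium channels, which carry the action potential, had 8 of 17 genes higher and 2 lower. The fibroblast growth factor homologues that bind these channels went in opposite directions, Fgf12 at 2.08 and Fgf13 at -1.08. Fgf13 was nevertheless detected in 100% of LTMR cells. Scn7a (0.98), Scn9a, which encodes Nav1.7 (0.84), and Scn1a, which encodes Nav1.1 (0.80, in 98.7% of LTMR cells and 9.2% of others) were higher. Scn1a was listed for 4 clusters, with 0.87 in Cold.sen, 0.75 in LTMR, 0.36 in Heat.sen and 0.27 in CGRP-z as log2 relative levels. Scn11a, which encodes Nav1.9 of nociceptors, was lower (-0.34) though found in 100% of LTMR cells against 42.9% of others, and Scn10a was not listed. Heat.sen likewise had 8 of the 17 genes higher and 2 lower, and Non-peptidergic 5 higher and 2 lower.

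Of the calcium channel subunit genes 5 of 17 were higher and 1 lower. The auxiliary genes Cacna2d3 (1.36) and Cacnb4 (0.78) led, followed by both T-type genes that were listed, Cacna1h (0.53, in 97.7% of LTMR cells and 14.3% of others) and Cacna1i (0.52). T-type channels open at low voltages. Cacnb2 was lower (-0.61), and Cacna1e was listed at -0.49 without passing the filter. Heat.sen had 8 of the 17 calcium channel genes higher and 0 lower, and Non-peptidergic 5 higher and 1 lower. The pacemaker channel gene Hcn2 was higher (0.35, in 96.1% of LTMR cells and 26.5% of others).

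On the list of TRP channels and of channels gated by acid or ATP, 2 of 17 genes (11.8%) were higher and 4 (23.5%) lower. Of all genes 12.5% were higher and 8.46% lower. The higher ones were Asic2 and P2ry1, which is on the list but encodes a G-protein-coupled receptor for ADP. Asic2 was thus the only higher channel gene. Trpm3, a heat channel gene, stood at -1.48, Trpv1 at -1.08, the ATP channel gene P2rx3 at -0.35 and Trpm7 at -0.26. P2ry1 had a log2 relative level of 1.68 in LTMR and 1.71 in Low.UMI.LTMR, 0.41 in Unknown.6 and values below the mean in the other 11 clusters listed. Asic2 was highest in CGRP-z (2.83), ahead of LTMR (1.70).

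GABA receptor genes, the receptors of the main inhibitory transmitter, had 7 of 12 members higher and 1 lower together with glycine receptor genes, and none of the higher members was a glycine receptor gene. The subunit genes Gabra2 (1.17) and Gabrb1 (0.54) and the GABA-B receptor gene Gabbr2 (0.92) were higher, and Gabrg3 (-0.50) was lower. Gabra2 was found in 100% of LTMR cells and 32.9% of others, and Gabrb1 in 96.8% and 13%. Heat.sen had 6 of the 12 genes higher and 0 lower, and Non-peptidergic 2 higher and 1 lower.

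Glutamate receptor genes went both ways, with 3 of 17 higher and 5 lower. The kainate receptor gene Grik1 was higher by 1.31 and Grm8 by 0.37. Grm7 (-0.97), Grik2 (-0.70) and Gria4 (-0.34) were lower. Grik1 was highest in Non-peptidergic (2.74), with LTMR second (1.23). Of the G-protein-coupled receptors that inhibit sensory neurons 3 of 13 were higher, Gabbr2, Gabbr1 (0.40) and Htr1d (0.38), a serotonin receptor gene found in 84.5% of LTMR cells and 1.2% of others. The 3 lower ones were the µ-opioid receptor gene Oprm1 (-1.13, in 21% of LTMR cells and 40% of others), the cannabinoid receptor gene Cnr1 (-0.31) and Npy2r (-0.31).

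Transcription factors of sensory neurons had 10 of 33 genes higher and 7 lower. Casz1 led (1.65, in 100% of LTMR cells and 15.8% of others), followed by Pou4f1, a factor of sensory neuron identity (1.54), Zfp521, Isl2 (1.28) and Tlx3 (0.94). Casz1 was above the mean of all cells in LTMR (1.53) and Non-peptidergic (0.93), and Pou4f1 in LTMR (1.44), Cold.sen (0.37) and Non-peptidergic (0.32). Isl2 was nearly level in Peptidergic.488p (1.28), Low.UMI.LTMR (1.23), LTMR (1.20) and SST (1.16). Zeb2 had the most negative value of the list (-1.67, in 18.1% of LTMR cells and 43.1% of others).

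Receptors for neurotrophic factors had 4 of 17 genes higher and 4 lower. Gfra2, Ntrk3 and Ret, the kinase with which the GFRA subunits signal (1.13), were higher, whereas Gfra3, the artemin receptor subunit (-1.07), was lower. Ntrk2 did not pass the filter. Ntrk3 was highest in Heat.sen (1.87), ahead of LTMR (1.19), Unknown.3 (1.09), Unknown.6 (1.08) and Cold.sen (1.02).

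Neuropeptide and granule genes had 1 of 23 members higher, Chgb (0.35), and 3 lower. These were Calca, which encodes calcitonin gene-related peptide (-3.27), Scg2 (-2.74) and Tac1, which encodes substance P (-2.60). Bdnf (-0.63) and Nmb (-1.29) did not pass the filter. Calca and Tac1 were nevertheless detected in 98.7% and 99% of LTMR cells, against 78.7% and 70.5% of other cells. Transcripts of Calca were also found in 34.2% to 61% of cells in the 7 Unknown clusters, where its level was likewise below the mean. Whether free RNA contributed to these detections was not tested.

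Intracellular signalling genes were mixed. Of the cyclic nucleotide and diacylglycerol genes 7 of 37 were higher and 11 lower. The phosphodiesterase genes Pde4d (1.50) and Pde1c (1.10) were higher, and the diacylglycerol kinase gene Dgki (-1.09) and the phospholipase gene Plcb3 (-0.96) were lower. Prkca (-1.36) and Dgkh (-1.13) did not pass the filter. Of the G protein and RGS genes 6 of 28 were higher and 6 lower. Rgs10 (1.77), Rgs8 (0.98) and Rgs4 (0.88), whose products shorten G protein signals, were higher, and Gna14 (-0.92) and Rgs7 (-0.73) were lower.

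Surface proteins by which neurons recognise partners went both ways. Synaptic adhesion genes had 11 of 43 higher and 8 lower. Kirrel3 (1.85), Lingo1 (1.08), Lrfn5 (1.08) and Sdk2 (1.07) were higher, and Ptprd (-1.13) and Ncam2 (-1.00) were lower. Kirrel3 was higher still in Heat.sen (log2 relative level 3.34) and Cold.sen (2.32) than in LTMR (1.71). Of the cadherin genes 4 of 20 were higher, led by Cdh9 and Cdh10 (0.87, in 98.1% of LTMR cells and 7.7% of others), and 3 lower, with Pcdh9 at -1.49.

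Axon guidance genes had 8 of 35 higher and 4 lower. Sema3e (1.00), Robo2 (0.95), Nrp1 (0.74), Slit1 (0.70) and Efna5 (0.66) were higher and Sema6a (-0.63) was lower. Sema3e was listed for 2 clusters, LTMR (0.94) and Unknown.2 (0.52). Slit1, a repulsive ligand, and Robo2, one of its receptors, were both among the higher genes.

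Genes of transmitter release had 13 of 32 higher and 2 lower. Beside Syt1 these included Cplx1 (1.33), Rims1 (1.32), Sv2c (1.22), Syt7 (1.04) and Pclo (0.89), which act in docking, priming and calcium sensing. Such counts were not particular to LTMR, since 17 of the 32 were higher in Non-peptidergic and 19 in Heat.sen. Genes of the neuronal cytoskeleton had 13 of 24 higher and 1 lower, Map2 (-0.78). Ank2 (0.99), Tubb4a (0.83), Ank3 (0.78) and Map1a (0.64) were the largest. Of the same 24 genes, 13 were higher in Non-peptidergic and 10 in Heat.sen. Gap43 was listed at -1.80 without passing the filter.

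The proteasome is the complex whose surface form the study labelled. The table holds 39 genes of the list, and 5 (12.8%) were higher and 3 (7.69%) lower in LTMR, close to the 12.5% and 8.46% of all genes. The higher cap genes Psmc1 (0.31), Psmc5 (0.29) and Psmd1 (0.28) and the higher core genes Psmb6 (0.28) and Psma7 (0.26) had small fold changes. Psmb8, an immunoproteasome subunit gene, stood at -0.41 and the activator gene Psme4 at -0.33. The other lower gene, Gpm6b, is on the list beside Gpm6a and encodes a membrane glycoprotein, not a proteasome subunit. Gpm6b had -1.55, and its level was highest in Unknown.2 (2.66). Psmb5, the gene of the subunit that the antibody recognises, was listed for 10 clusters, and LTMR was not one of them. It was higher in Low.UMI.Pep (log2 relative level 0.57), Peptidergic.488p (0.37) and Non-peptidergic (0.28), and lower in all 7 Unknown clusters. The table gives transcript levels and carries no measure of the surface label.

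**Figure D3:**
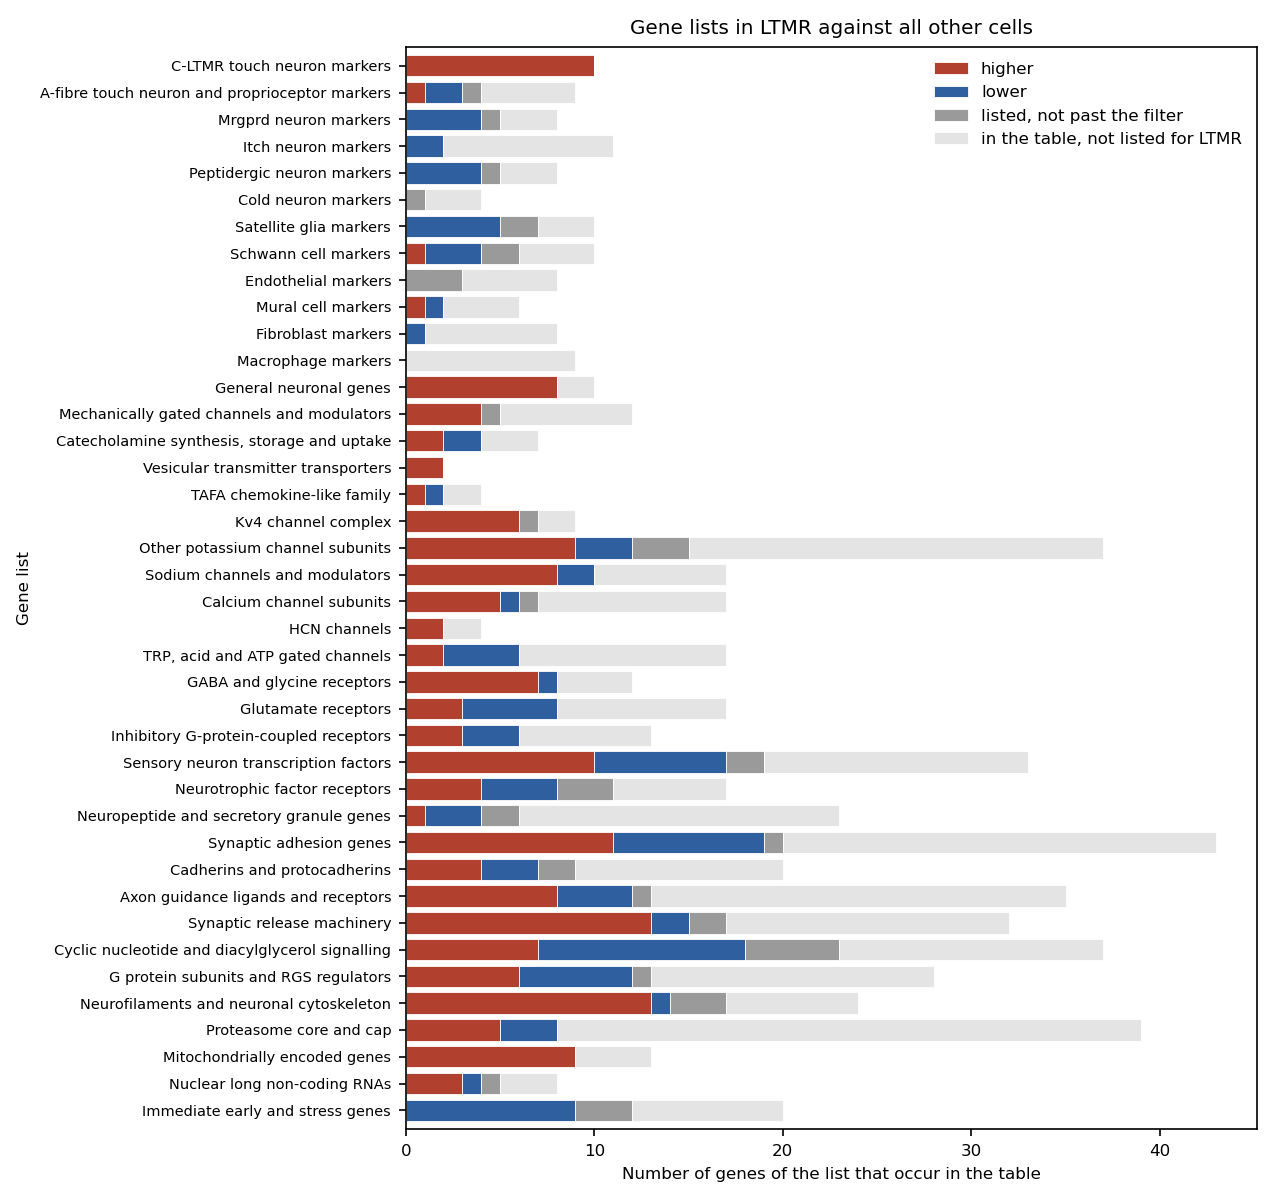
Bars count the genes of each of 40 lists that occur in the table, split by their call in LTMR against all other cells. The C-LTMR list, which includes the markers given for the cluster, is red along its whole length (10 of 10). The cytoskeleton and release lists each hold 13 higher genes, and the immediate early list holds 9 lower genes and 0 higher ones.

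The genes with the most negative fold changes in the authors' deposited table were Gm42418 (-3.29), Calca (-3.27), Sparc, which encodes a matrix protein of glia and stroma (-3.23), Cmss1 (-3.12), the immediate early gene Jun (-3.00), Scg2 (-2.74), Fos (-2.70) and Tac1 (-2.60). With 1 exception, Sparc (18.4% against 36%), these were found in a larger share of LTMR cells than of other cells. The same held for 514 of the 781 lower genes, and 267 lower genes were found in a smaller share. Of the 1150 higher genes 0 were found in a smaller share, and 358 were found in 100% of LTMR cells. Over the genes listed for LTMR the median detection was 97.4% in the cluster and 38.1% in other cells. In Low.UMI.LTMR the corresponding medians were 6.5% and 41.7%, and 962 of its 1010 higher genes were found in a smaller share of its cells. The part that the number of transcripts per cell has in these detection shares was not tested.

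Immediate early and stress genes, which respond to activity and to tissue dissociation, had 0 of 20 higher and 9 lower, with a median log2 fold change of -1.55 over the 12 listed. Jun, Fos, Egr1 (-2.40), Junb (-2.21) and Fosb (-2.04) were lower, and Atf3 (-1.57) did not pass the filter. Fos was found in 99.4% of LTMR cells against 73.4% of others. Its log2 relative level was -2.65 in LTMR, -1.73 in Non-peptidergic and -1.41 in Cold.sen, and it was above the mean in 6 of the 7 Unknown clusters, from 0.38 in Unknown.5 to 1.71 in Unknown.2.

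Mitochondrially encoded genes had 9 of 13 higher and 0 lower, with a median of 0.73. The largest were mt-Cytb (0.92), mt-Nd1 (0.85), mt-Co2 (0.76) and mt-Nd4 (0.75). Of the same 13 genes, 8 were higher in Non-peptidergic and 11 in Heat.sen. Of the nuclear long non-coding RNAs Meg3 (1.27), Snhg11 (0.58) and Rian (0.25) were higher, Malat1 (-1.55) was lower and Neat1 (-0.91) did not pass the filter. Meg3 had a log2 relative level of 1.19 in LTMR, below Cold.sen (2.24) and Heat.sen (2.06).

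Pmp22 and Rgs5 were the only markers of non-neuronal cells on these lists that were higher in LTMR. Of the satellite glia markers 0 of 10 were higher and 5 lower, including Sparc and Dbi (-2.00). Among the 7 listed, 3 were found in a larger share of LTMR cells and 4 in a smaller share. Apoe was listed at -5.17 without passing the filter, yet was found in 89.3% of LTMR cells and 49.3% of others. Of the endothelial markers 0 of 8 were called and of the macrophage markers 0 of 9 were listed, and 1 of 8 fibroblast markers, Col1a2 (-1.57), was lower. The Schwann cell list had 1 of 10 higher and 3 lower. Pmp22, a myelin protein gene, was higher in LTMR (0.95), whereas Mbp (-0.35), Ncmap (-0.62) and Pllp (-0.28) were lower. These lower Schwann cell genes were nevertheless found in a larger share of LTMR cells than of others. The shares were 98.4% against 30.4% for Mbp, 18.1% against 7.7% for Ncmap and 34% against 5.8% for Pllp. The mural cell list had 1 of 6 higher, Rgs5 (1.44, in 99.7% of LTMR cells and 8.7% of others), and Pdgfrb was lower (-0.26, in 1% of LTMR cells). Rgs5 was highest in Unknown.3 (3.18), with LTMR (1.35) and Peptidergic.488p (1.28) next, and Pmp22 was highest in Unknown.4 (3.64), with Low.UMI.LTMR (1.34) and LTMR (0.90) next. The part of other cell types in these values was not tested.

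The cluster was then set beside Low.UMI.LTMR and the 2 named neuron clusters that shared the largest part of its higher genes. Counting genes with log2 fold changes from 0.5 upwards that were detected in at least 25% of cells, LTMR had 446 higher genes. Non-peptidergic shared 129 of them, 28.9% of the LTMR genes and 35.1% of its own. Heat.sen shared 123, 27.6% and 26.2%, and Cold.sen 119, 26.7% and 26.8%, so these 2 could hardly be separated. Low.UMI.LTMR shared 44, 9.87% of the LTMR genes and 55.7% of its own 79 genes. With the same minimums Non-peptidergic had 368 higher genes, Heat.sen 470, Cold.sen 444 and Low.UMI.LTMR 79, of 9229 genes in the table. These counts are the ones to read beside the overlaps. Without the minimums, the higher genes were 10.9% of all genes in Low.UMI.LTMR, 9.86% in Non-peptidergic and 12.6% in Heat.sen.

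Low.UMI.LTMR carries the same cell type name with few molecules per cell. For 1494 genes listed for both clusters the median difference of log2 relative level was 0.01, and each was found in a larger share of LTMR cells, with median shares of 94.2% and 5.7%. LTMR was higher by at least 1 for 53 genes and lower by at least 1 for 10. The largest differences in favour of LTMR were Csmd1 (3.61), Meg3 (3.12), mt-Co2 (3.11), mt-Cytb (3.06) and mt-Nd1 (3.05). All 9 mitochondrially encoded genes listed for both were above Low.UMI.LTMR, by a median of 2.85, and 12 of 13 such genes were lower in Low.UMI.LTMR against other cells. The largest differences in the other direction were Cmss1 (-3.81), Calca (-1.90), Camk1d (-1.67), Cdk8 (-1.61) and Tmem233 (-1.38). The 6 C-LTMR markers listed for both differed by a median of 0.12, and they include Th, Piezo2, Tafa4 and Rarres1, the markers given for the LTMR cluster.

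Non-peptidergic neurons, which are named for their lack of neuropeptides and include Mrgprd cells of the skin, were close to LTMR in detection, with medians of 94.2% and 95.5% over 1238 shared genes, and the median difference of log2 relative level over these genes was 0.0045. LTMR was higher by at least 1 for 49 genes and lower for 65. In LTMR the larger levels were those of Rarres1 (3.14), Kirrel3 (3.02), Wfdc2 (2.80), the small heat shock protein gene Hspb1 (2.57) and Th (2.49). In Non-peptidergic the larger levels were those of Tmem233 (-3.92), Dgki (-3.56), Prkca (-2.96), Cd55 (-2.86) and Ptprt (-2.50). All 5 Mrgprd neuron markers listed for both were below the Non-peptidergic level, by a median of -1.83. By contrast, all 6 C-LTMR markers listed for both were above it, by a median of 1.61. Piezo2, Rarres1 and Th, which are markers given for the LTMR cluster, are among these, and their high values describe how it was named. Signalling genes were also apart, since 13 of 18 cyclic nucleotide and diacylglycerol genes were below Non-peptidergic, by a median of -0.96.

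Heat.sen, named for heat-sensitive neurons, shared 766 listed genes with LTMR. LTMR was higher by at least 1 for 59 of them and lower for 78. The differences in favour of LTMR were led by Fxyd2, a regulator of the sodium pump (4.97), Piezo2 (3.73), Pitpnc1 (3.19), Rarres1 (2.93) and Rgs4 (2.56). Those in favour of Heat.sen were Pcdh9 (-4.24), Trpv1 (-3.92), Scg2 (-3.59), Ncam2 (-3.50) and Grm7 (-2.96). Synaptic adhesion genes were lower in LTMR in 13 of 17 cases, by a median of -0.92, and all 4 cadherin genes listed for both were lower, beside a median of -0.03 over all 766 genes. These differences had no replicates and were not tested.

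**Figure D4:**
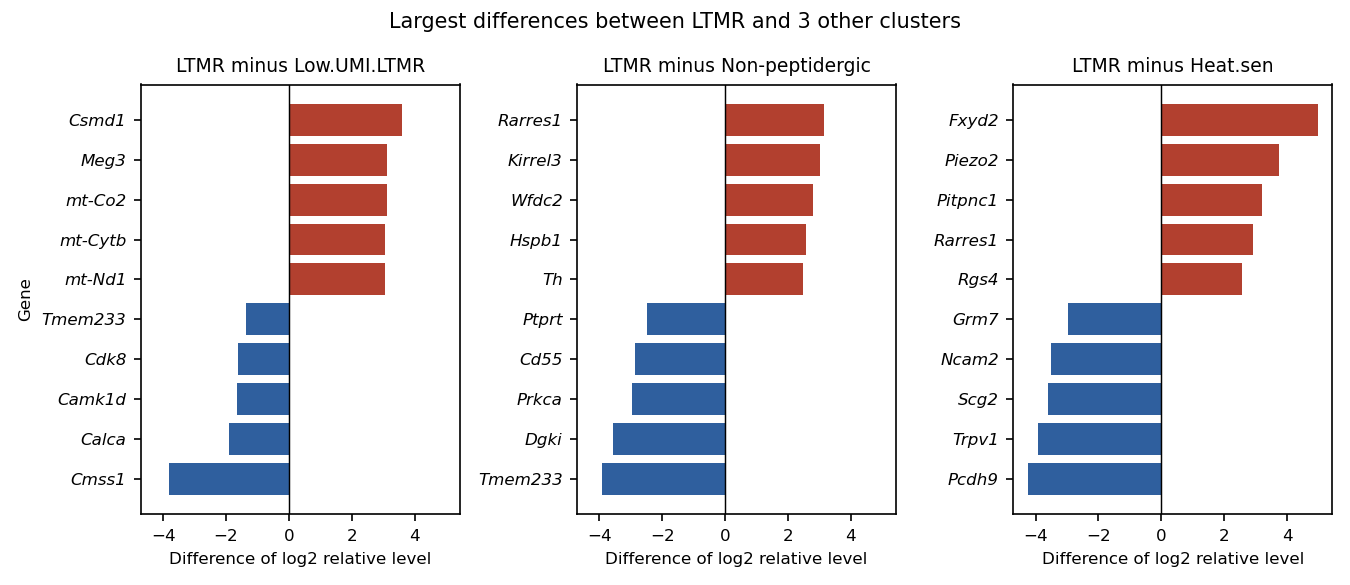
Bars give the difference of log2 relative level, LTMR minus the cluster named above each panel, for the 5 genes with the largest difference in each direction among genes listed for both. The values run from -3.81 to 3.61 for Low.UMI.LTMR, from -3.92 to 3.14 for Non-peptidergic and from -4.24 to 4.97 for Heat.sen.

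Most of the higher genes of LTMR were shared. Of the 1150, 356 (31.0%) had their highest listed level in LTMR and 209 in Low.UMI.LTMR, together 565 (49.1%). A further 90 were highest in Heat.sen, 59 each in Cold.sen, Peptidergic.488p and SST, and 48 in Non-peptidergic. For 93 genes LTMR was the only listed cluster above the mean of all cells. The largest leads over the next listed cluster were those of Kcnd3 (2.40), Ak5, an adenylate kinase gene (1.44), Kif5c (1.42), Dpp10 (1.38) and Lingo1 (1.28). Tmem132e (1.23), Kcnip4 (1.08), Pou4f1 (1.06) and Necab3 (0.99) followed. Because a cluster for which a gene is not listed can lie near the mean, the leads were also taken with such clusters at 0.25. The lead of Kcnd3 was then 1.80, that of Ak5 0.96 and that of Lingo1 0.77, and 6 genes kept a lead of at least 1.

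A last view asks in which cells a transcript was found at all. The share of all detecting cells that lay in LTMR, a cluster of 3.93% of cells, was at least 50% for 34 higher genes, which were singled out after their values were seen. It was 92.8% for Slc10a2, a bile acid transporter gene, found in 62.8% of LTMR cells and 0.2% of others. It was 88.8% for Cbln2, which encodes a synaptic organiser, 88.4% for Cacna1i, 86.3% for Bmp15, 79.1% for Zfp804b and 78.5% for Slc51a. For Htr1d it was 74.2%, for Hcrtr2 74.1%, for C1ql4 72.9% and for Kcnj6 65.4%. The log2 fold change was 0.32 for Slc10a2, 0.34 for Cbln2 and 0.94 for C1ql4.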

How the data were processed

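The values come from 1 table of cluster markers over 20 clusters. Its columns hold, per the file headers, the deposited p-value and adjusted p-value, the average log2 fold change of a cluster relative to the remaining cells, and, for both sides, the fraction of cells in which the gene was found. Seurat is named in the submitters' processing notes. Aligner, genome build, cell filters, normalization, clustering, doublet handling, the pseudocount of the fold changes, numbers of cells and depths are all not given in the sources. No interval could therefore be attached to a share. In the table the adjusted p equals the p-value times 32285, with a ceiling of 1.

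Cluster shares of cells were solved by least squares over 6748 genes whose detection differed by at least 5 percentage points, since a gene's overall fraction is the same from whichever cluster it is computed. The residual was 0.0256 percentage points. With f the fold change and w the share, the relative level is log2(f/(1 + w(f − 1))). For 34 genes listed for every cluster its weighted sum was 0.999988 to 1.00014. The steps were tested on simulated data. No test was run.

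The members and the 40 gene lists (684 genes, 605 in the table, 153 higher and 96 lower) were chosen with earlier results of these data known. Genes were named by rule: the 4 given markers, the 15 largest fold changes among higher genes in at least 25% of LTMR cells and at least 20 points more frequent than elsewhere (predicted genes left out), the 10 largest differences in detection, the 8 most negative, up to 6 members per list of largest absolute fold change or all in lists of 10 or fewer, the 5 largest differences each way per cluster pair and the 10 largest leads. Some genes these rules name are not reported here. Genes named as not listed, and those of the last paragraph on detecting cells, were chosen after their values were seen. Python 3.11.15, numpy 2.4.6, pandas 2.3.3 and matplotlib 3.10.9 were used. Promoters are RefSeq's, on GRCm38.p6.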

Additional observations from a re-analysis of the deposited data

How the results depend on the processing

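No paired analysis was possible because the table has no sample columns, and for the same reason no replicate could be left out. The count of higher genes was 446 at an absolute log2 fold change of at least 0.5 and 119 at 1, against 1150. The count of lower genes was 285 and 93, against 781, and 267 when detection had to differ the same way, which left the higher count at 1150. Members of all lists called fell from 249 to 166 and 61 at the same minimums, because fewer genes pass. The majority direction of the A-fibre list turned at 1 (1 higher, 0 lower), that of cyclic nucleotide genes at 1 (2 higher, 1 lower) and that of the proteasome list at 0.5 and 1 (0 higher, 1 lower, Gpm6b). Shared higher genes, in percent of those in either cluster, were 18.4 for Low.UMI.LTMR, 12.2 for Non-peptidergic and 6.98 for Heat.sen at a minimum of 1, against 9.15, 18.8 and 15.5, and Cold.sen then ranked ahead of Heat.sen, as it did at 0.25. By share of cells instead of level, 1030 higher genes were highest in LTMR, ties included, against 356, and 525 were without the Low.UMI clusters. The share of cells in LTMR was 3.93% with either detection minimum. Without the correction for cluster shares all 30 named differences between clusters kept their sign, with a largest change of 0.46. The unknown depth per cell limits every detection share.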
